A study of Homo sapiens with 8 samples.

Results

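The mRNAs of 10 glycolytic enzyme genes, GPI, ALDOA, TPI1, GAPDH, PGK1, PGAM1, ENO1, PKM, LDHA and LDHB, were examined in HEK293T, an established line of human embryonic kidney origin. The genes were chosen by name for their place in the pathway, with earlier results of these data known. Every RefSeq transcript of each was included, which gave 35 of the 53216 transcripts in the deposited table and 10 of the 26005 gene symbols. The study compared RNA in 8 libraries of 3 groups. The WT RiboMinus group (2 libraries) held RNA of unmodified cells depleted of ribosomal RNA. The WT NAD-Capture group, or captured WT RNA (3 libraries), held RNA of the same unmodified line, selected by a chemistry that clicks biotin onto RNA bearing NAD and pulls it down on streptavidin. The third group (3 libraries) held NAD-Capture RNA of HEK293T cells labelled DXO-KO, a knockout of DXO, whose protein takes NAD off the ends of RNA. All cells were grown without treatment, and no source used here says how many knockout clones were sampled or whether libraries of a group came from separate cultures, so p-values measure the spread between these libraries, which may be technical. The RiboMinus libraries were made with a TruSeq kit and the captured ones with a SMARTer low-input kit, so capture and kit cannot be told apart in any comparison with RiboMinus. None of the 8 libraries is labelled as the reaction without the cyclase, so the background of the capture is not covered here.

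Glycolysis splits glucose into pyruvate and yields ATP and NADH. GPI, ALDOA and TPI1 carry out steps of its upper part, GAPDH reduces NAD to NADH, PGK1 and PKM make ATP, PGAM1 and ENO1 rearrange the phosphate-bearing intermediates between them, and LDHA and LDHB turn pyruvate into lactate and back, which returns NADH to NAD. These are among the most abundant housekeeping mRNAs of proliferating cells. NAD can stand at the 5′ end of an RNA where a polymerase starts with NAD in place of ATP, so an NAD-capped RNA begins with adenosine.

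Levels are in FPKM, fragments scaled to transcript length and to the library's fragments. For an effective length of 1 kb, a single fragment was worth 0.0939 and 0.114 FPKM in RiboMinus. In WT NAD-Capture it was worth 4.01 to 6.11 FPKM. In the third group it was worth 1.24 FPKM in replicate 1, the deepest captured library, 7.33 FPKM in replicate 2 and 12.4 FPKM in replicate 3. DXO, the targeted gene, was at 128, 61.6 and 71.7 FPKM in the DXO-KO-labelled libraries and at 33.2, 17.2 and 27.1 FPKM in WT NAD-Capture, higher rather than lower under the knockout label (log2 difference 1.69, limma adjusted p 0.114; two-sided exact permutation p = 0.1, and 3 against 3 can give no smaller one). In WT RiboMinus DXO was at 11.2 and 14.3 FPKM. Against these the log2 difference was 2.61 in the DXO-KO-labelled libraries (limma adjusted p 0.0327) and 0.93 in WT NAD-Capture (limma adjusted p 0.106). None of the 8 libraries is RiboMinus RNA of the DXO-KO-labelled cells, so the level of DXO mRNA before capture is not shown for them. The labels are used as deposited, and each library labelled DXO-KO is called by its label. Of 5 genes expressed in HEK293T cells (VIM, KRT8, KRT18, NEFL, NEFM), the summed level was 337 to 357 FPKM in RiboMinus, 141 to 214 FPKM in captured WT RNA and 319.7 to 403 FPKM in the DXO-KO-labelled libraries. Most of the RiboMinus sum was VIM, at 321 and 308 FPKM, whereas KRT8, NEFL and NEFM were at 2.81 to 4.98 FPKM there. The genes did not move together. In every captured WT library VIM (77.8, 103 and 72.5 FPKM) and KRT18 lay lower than in RiboMinus. KRT8, NEFL and NEFM (83.1, 79.3 and 34.8 FPKM) lay higher. Of 7 markers of other cells, PTPRC and HBB were listed at 0 in every library. The summed level of the 7 was 1.50 to 1.56 FPKM in RiboMinus, 25.1 to 36.3 FPKM in captured WT RNA and 2.92 to 25.5 FPKM in the DXO-KO-labelled libraries.

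All 10 genes were detected in all 8 libraries. In RiboMinus they spanned a 16.6-fold to 17.1-fold range of FPKM, a level per length, and the order from the highest was ENO1, GAPDH, LDHB, ALDOA, PKM, TPI1, LDHA, PGK1, GPI and PGAM1. No neighbours in that order overlapped between the 2 libraries. In the captured libraries LDHB stood first in all 6 and PGAM1 last, and the range between them was 68.2-fold to 402-fold. By group mean, WT NAD-Capture was ordered LDHB, ENO1, ALDOA, LDHA, GAPDH, TPI1, PKM, PGK1, GPI and PGAM1, but LDHB and ENO1 overlapped, as did ALDOA, LDHA, GAPDH and TPI1 from neighbour to neighbour, and PKM and PGK1. The order of means was the same in the DXO-KO-labelled libraries, where only TPI1 and PKM, PGK1 and GPI, and GPI and PGAM1 did not overlap as neighbours. The 10 genes together made up 1.55% and 1.49% of the FPKM of 19027 genes with an mRNA transcript in RiboMinus, 1.41%, 1.23% and 1.15% in captured WT RNA, and 1.25%, 1.40% and 1.21% in the DXO-KO-labelled libraries. The share was lower in every captured library than in either RiboMinus library. Of the FPKM of all transcripts, the 10 genes made up 1.00% and 0.942% in RiboMinus and 0.446%, 0.298% and 0.411% in captured WT RNA. In the DXO-KO-labelled libraries they made up 0.314%, 0.0888% and 0.117%. The FPKM of a library summed to 541482 and 544947 in RiboMinus and to 1.15e+06 to 2.11e+06 in captured WT RNA. In the DXO-KO-labelled libraries the sums were 1.27e+06, 8.56e+06 and 6.94e+06.

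**Figure D1:**
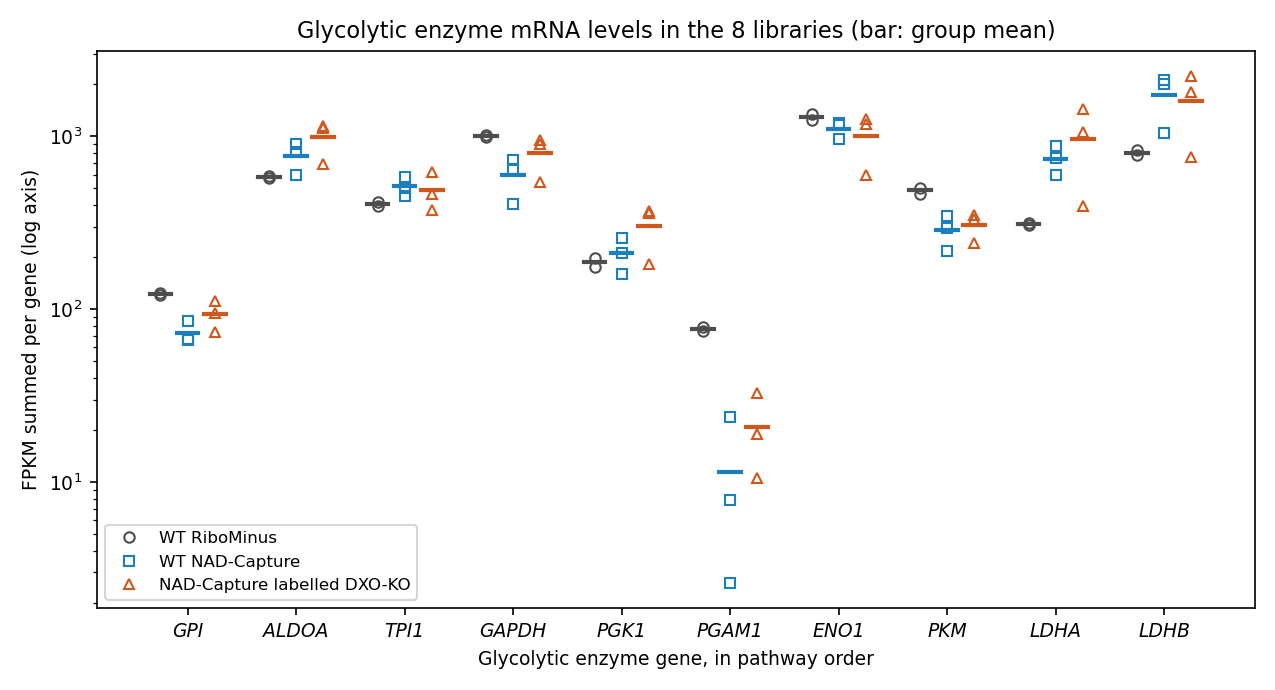
FPKM summed per gene (log axis) for the 10 genes in pathway order, with a symbol per library on each gene (circles WT RiboMinus, squares WT NAD-Capture, triangles NAD-Capture labelled DXO-KO) and a bar at each group mean. PGAM1 is the lowest gene in every library and falls from 75.0 and 78.8 FPKM in RiboMinus to between 2.62 and 32.8 FPKM in the captured libraries, whereas LDHA lies higher in all 6 captured libraries and LDHB in 5 of them.

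The sequence around the annotated starts of the 3 genes called in the comparisons below, GPI, PGAM1 and LDHA, and of LDHB, the partner subunit of LDHA, is shown first, because NAD takes the place of an adenosine at the first base. The windows are from RefSeq, build GRCh38.p14, each 20 bases before the start and 10 from it, and the capital marks the first transcribed base of the annotation. The deposited values were made on hg19, so the windows were matched by symbol and not by position.
GPI, chr19:34364972-34365001, plus strand: ccccactgccacttccgggcAgaggccagc
PGAM1, chr10:97427798-97427827, plus strand: ctctggacaaagaagcagccAttcacaagg
LDHA, upstream start, chr11:18394543-18394572, plus strand: cctcccgcgcccagctcagaGtgctgcagc
LDHA, downstream start, chr11:18396331-18396360, plus strand: tccgagcgggaaggagagccAcaaagcgcg
LDHB, chr12:21657833-21657862, minus strand: gccccgccccctcctccctcCttgcagagc
The table held 14 starts for the 10 genes, of which 4 (28.6%) began with A, those of GPI, PGAM1 and ENO1 and the downstream start of LDHA. Of all 35116 starts in the same table, 44.4% began with A. An annotated start is not a measured one, and the deposited values do not show where these RNAs began.

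Captured and RiboMinus RNA of WT cells were compared first, to see which RNAs are more or less abundant after capture. LDHA rose, and PGAM1 and GPI fell. A rise or fall here is a difference between captured and RiboMinus libraries of the same unmodified line. It does not measure a change of level in the cells, and capture and kit cannot be told apart in it. The other 7 genes did not pass the threshold, an adjusted p of 0.05 in limma over 17037 genes. The call of 1 gene higher and 2 lower of 10 is read against all genes, of which 24.7% were called, 16.7% higher and 7.98% lower. The groups did not overlap for 4 genes that were higher and 5 that were lower, against 28.7% and 26.9% of all genes. The median log2 difference of the 10 genes was -0.04, beside 0.21 over all genes, and 5 of 10 were positive, beside 55.2% of all genes. Over the 6917 genes with a mean of at least 10 FPKM the median was -0.34, below that of the 10 genes. At an unadjusted p under 0.05 were 6 of the 10, beside 37.8% of all genes. The share called is thus near that of the table.

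LDHA, the lactate dehydrogenase subunit typical of muscle and of fast-growing cells, was at 316 and 307 FPKM in RiboMinus and at 875, 748 and 599.7 FPKM in WT NAD-Capture. Every captured library lay above both RiboMinus libraries. All differences here are on the log2(FPKM + 1) scale. The log2 difference of LDHA was 1.23 (SE 0.222, limma adjusted p 0.0164), at percentile 71.5 of the differences of all genes. It stayed positive under the 15 alternatives (0.32 to 1.37, adjusted p 0.0125 to 0.187) and was called in 9 of them. It was not called, among others, without RiboMinus replicate 1 (adjusted p 0.185) or 2 (0.187), after centring (0.75, adjusted p 0.0581) or after quantile normalization (0.32, adjusted p 0.116). LDHB, the subunit typical of heart, was at 829.8 and 776 FPKM in RiboMinus and at 2123, 2019.9 and 1051 FPKM in WT NAD-Capture. The groups did not overlap either, with a log2 difference of 1.04 (SE 0.363, limma adjusted p 0.0963); it passed with replicate 3 of WT NAD-Capture left out (1.37, adjusted p 0.00999) and turned to -0.75 (adjusted p 0.0291) after quantile normalization.

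PGAM1, the mutase that moves the phosphate of phosphoglycerate, has a single transcript row. Its level was 78.8 and 75.0 FPKM in RiboMinus and 23.7, 7.87 and 2.62 FPKM in captured WT RNA. The log2 difference was -3.07 (SE 0.793, limma adjusted p 0.0436), at percentile 0.546 of the differences of all genes. With the lowest value taken as 1 fragment, the captured values correspond to 7, 2 and 1 fragments and the RiboMinus values to 1285 and 1005. The 95% Poisson intervals, which cover counting error only, reached 48.9, 28.8 and 14.6 FPKM at their upper ends in captured WT RNA and began at 74.5 and 70.4 FPKM in RiboMinus, so they did not meet. The difference was negative under the 15 alternatives (-3.78 to -2.14) and called in 6 of them. It was not called, among others, without WT NAD-Capture replicate 2 (adjusted p 0.103) or 3 (0.0558), or without RiboMinus replicate 1 (0.262) or 2 (0.237). PGAM1 has near-identical copies in the genome, PGAM4 among them, and how reads shared between them were assigned is not stated. PGAM4 was at 6.55 and 6.99 FPKM in RiboMinus, at 4.04 FPKM in WT NAD-Capture replicate 2 and listed at 0 in the other 5 captured libraries. The pseudogene row PGAM1P5 was at 0.638 FPKM in replicate 1 labelled DXO-KO and listed at 0 in the other 7 libraries. The part of shared reads in the PGAM1 values was not tested.

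GPI, the isomerase that converts glucose 6-phosphate to fructose 6-phosphate, was at 123 and 121 FPKM in RiboMinus and at 85.4, 67.3 and 66.2 FPKM in WT NAD-Capture. All captured values were lower (log2 difference -0.75, SE 0.193, limma adjusted p 0.0439, at percentile 23.7 of the differences of all genes). It was negative under the 15 alternatives (-1.22 to -0.58) and called in 6 of them. It was not called, among others, without WT NAD-Capture replicate 2 (adjusted p 0.0638) or 3 (0.0579), and without RiboMinus replicate 1 (0.317) or 2 (0.298).

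GAPDH, the dehydrogenase that uses NAD, had a similar spacing of the groups. It was at 1023 and 994 FPKM in RiboMinus and at 735, 646 and 405 FPKM in WT NAD-Capture, with no overlap. The log2 difference was -0.80 (SE 0.302, limma adjusted p 0.115), and without WT NAD-Capture replicate 3 it was -0.55 and passed (adjusted p 0.0384). PKM, the last ATP-making enzyme, was at 506 and 467 FPKM in RiboMinus and at 345, 296 and 216 FPKM in captured WT RNA. The log2 difference of PKM was -0.79 (SE 0.249, limma adjusted p 0.0746), and without WT NAD-Capture replicate 3 it was -0.60 and passed (adjusted p 0.0450). Both were negative under the 15 alternatives and passed after centring, quantile normalization and scaling to mRNA genes.

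The remaining 4 genes had smaller differences in the values as deposited. ENO1, the enolase, was at 1350.2 and 1245 FPKM in RiboMinus and at 1168, 1193 and 962 FPKM in WT NAD-Capture (log2 difference -0.23, adjusted p 0.447). ENO1 stayed negative under the 15 alternatives and passed in 2, after quantile normalization (-2.06, adjusted p 0.00298) and with mRNA genes scaled to a common sum (-0.68, adjusted p 0.0186). ALDOA, the aldolase, was at 591 and 576 FPKM in RiboMinus and at 898, 599 and 809 FPKM in WT NAD-Capture (log2 difference 0.38, adjusted p 0.303). TPI1, the triose isomerase, was at 417 and 397 FPKM in RiboMinus and at 584, 501 and 454 FPKM in WT NAD-Capture (log2 difference 0.33, adjusted p 0.275). For these 3 genes the captured libraries lay wholly on one side of RiboMinus. PGK1, the kinase that makes the first ATP of the lower pathway, was at 198 and 175 FPKM in RiboMinus and at 259, 212 and 159 FPKM in WT NAD-Capture, with overlap (log2 difference 0.15, adjusted p 0.687). The direction of ALDOA, TPI1 and PGK1 turned negative under each of the 3 scalings tried, which moved the median of all genes from 0.21 to between -0.26 and -0.09.

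**Figure D2:**
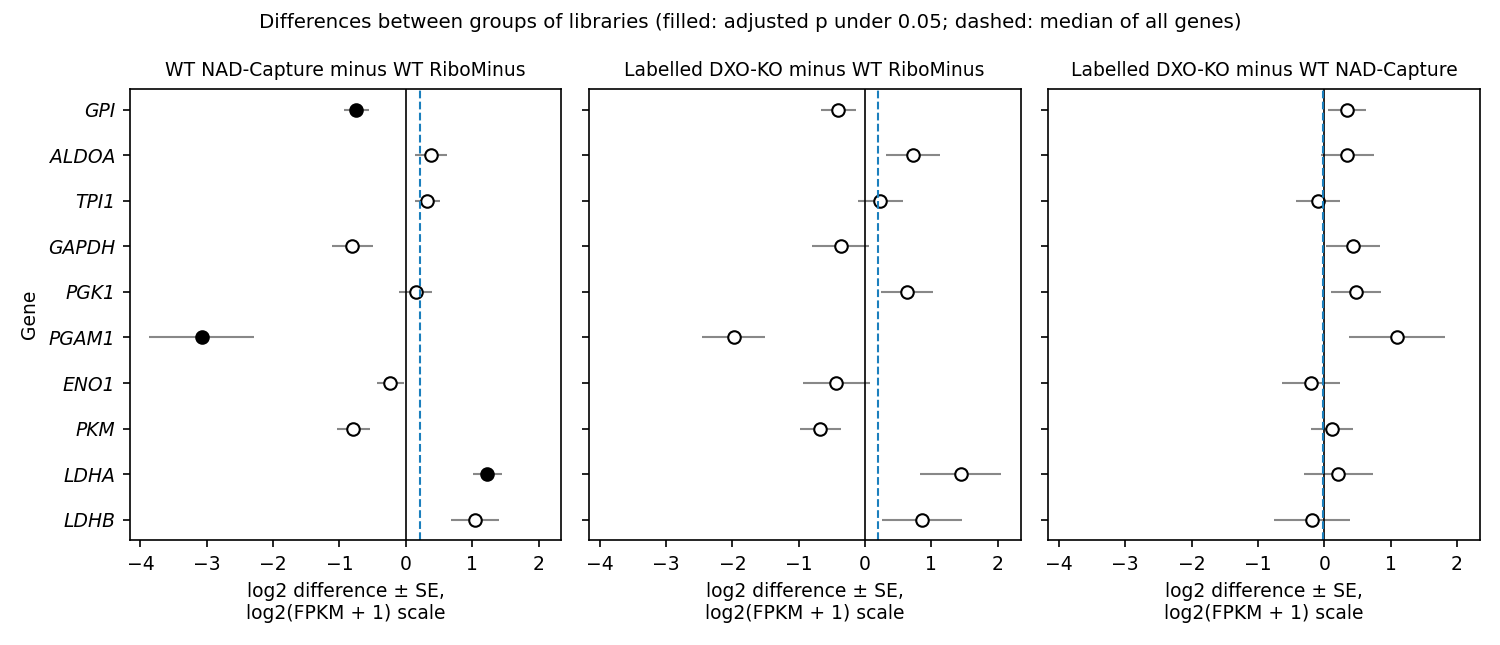
Log2 differences with their standard errors for the 10 genes in the 3 comparisons, on the log2(FPKM + 1) scale; filled points have a limma adjusted p under 0.05 and the dashed line is the median of all genes tested. The filled points are LDHA at 1.23, GPI at -0.75 and PGAM1 at -3.07, all for captured against RiboMinus RNA of WT cells.

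Setting the DXO-KO-labelled libraries against WT RiboMinus uses the same RiboMinus libraries, so these values are not a second test of those above. None of the 10 genes passed in limma, beside 3.33% of 15088 genes, 2.48% higher and 0.855% lower (21.1% at an unadjusted p under 0.05, where PGAM1 alone of the 10 genes lay). The median log2 difference of the 10 was -0.07, beside 0.20 over all genes, and 5 of 10 were positive, beside 57% of all genes. Over the 6996 genes with a mean of at least 10 FPKM the median was also -0.07. The groups did not overlap for 2 higher and 4 lower genes, against 24.2% and 20.2% of all genes. LDHA was at 398, 1061 and 1444 FPKM in the replicates 1, 2 and 3 so labelled, all above RiboMinus (log2 difference 1.44, SE 0.606, adjusted p 0.253). LDHB was at 760.3, 1801 and 2235 FPKM, so that replicate 1 lay below RiboMinus and the others above it (log2 difference 0.85, adjusted p 0.467). ALDOA was at 694, 1152 and 1121 FPKM, all above RiboMinus (log2 difference 0.72, adjusted p 0.382).

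PGAM1 was at 10.5, 18.8 and 32.8 FPKM in the DXO-KO-labelled libraries, all below RiboMinus (log2 difference -1.98, SE 0.473, limma adjusted p 0.0895). These values correspond to 13, 4 and 4 fragments, and their 95% Poisson intervals ended at 18.0, 49.0 and 83.0 FPKM, so that of replicate 3 reached the RiboMinus intervals. PGAM1 passed without replicate 3 labelled DXO-KO (-2.37, adjusted p 0.0398), and after centring, quantile normalization or scaling to mRNA genes. PKM was at 352, 331 and 242 FPKM (log2 difference -0.67, adjusted p 0.285), GPI at 74.2, 95.4 and 111 FPKM (-0.40, adjusted p 0.438) and GAPDH at 547, 909 and 954 FPKM (-0.37, adjusted p 0.644), each wholly below RiboMinus. ENO1 at 602, 1254 and 1175 FPKM, TPI1 at 376, 619 and 466 FPKM and PGK1 at 181, 358 and 369 FPKM overlapped with RiboMinus.

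The DXO-KO-labelled libraries were then compared with WT NAD-Capture, the comparison that asks what differs among captured RNAs when DXO is targeted. None of the 10 genes passed in limma, and none had an unadjusted p under 0.05. Of 17784 genes, 0.0337% were called, 0.0169% higher and 0.0169% lower, and 16.7% had an unadjusted p under 0.05. All 10 genes overlapped in FPKM between the groups, whereas 11.8% of all genes were wholly higher and 11.5% wholly lower in the DXO-KO-labelled libraries. The median log2 difference was 0.28, with 7 of 10 genes positive, beside -0.02 and 49.5% positive over all genes. Many of all genes were low. Over the 7082 genes with a mean of at least 10 FPKM the median was 0.27, so the 10 genes did not stand apart from these.

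In the upper part of the pathway the log2 difference was 0.34 for GPI (SE 0.285, limma adjusted p 0.553), 0.35 for ALDOA (SE 0.394, adjusted p 0.649) and -0.10 for TPI1 (adjusted p 0.902). Of the genes of the lower part, GAPDH differed by 0.43 (SE 0.404, adjusted p 0.587) and PGK1 by 0.48 (SE 0.374, adjusted p 0.526). PGAM1 had the largest difference of the 10, 1.09, and also the largest standard error, 0.722 (adjusted p 0.458), on the 1 to 13 fragments per captured library given above. ENO1 differed by -0.20 (adjusted p 0.830) and PKM by 0.12 (adjusted p 0.869). At the lactate step, LDHA differed by 0.21 (SE 0.519, adjusted p 0.849) and LDHB by -0.19 (SE 0.569, adjusted p 0.886). The groups overlapped in FPKM for each of these genes, so the differences were within the spread of FPKM between libraries.

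Replicate 1 labelled DXO-KO, the deepest captured library, was the lowest of its group for 9 of the 10 genes and the highest for PKM. Without it, all 10 genes had positive log2 differences against WT NAD-Capture, with a median of 0.54 beside -0.0064 over all genes, and none passed (lowest limma adjusted p 0.234). The median over genes of at least 10 FPKM was not computed without replicate 1. Against WT RiboMinus, 4 genes passed without it, LDHA (1.98, adjusted p 0.0358), LDHB (1.32, adjusted p 0.0497), ALDOA (0.96, adjusted p 0.0483) and PGK1 (0.96, adjusted p 0.0470). Over the whole table calls were also more frequent without it, 858 higher and 357 lower of 14630 genes. The part of depth in these differences was not tested. The spread within groups also differed by kind of library: the coefficient of variation of the 10 genes was 1.35% to 8.88% in RiboMinus, 11.5% to 96.3% in captured WT RNA and 18.8% to 54.7% in the DXO-KO-labelled libraries.

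Each gene was also set against the median of the 10 genes in its own library, on log2(FPKM + 1). A common factor on a library hardly moves this quantity, except for low values such as those of PGAM1, where the added 1 counts. On this log2 scale LDHA was at -0.54 and -0.48 in RiboMinus, at 0.42, 0.45 and 0.48 in captured WT RNA, and at 0.04, 0.50 and 1.11 in the DXO-KO-labelled libraries. LDHA thus passed from below to above the middle of the set in all 6 captured libraries. LDHB was at 0.85 in both RiboMinus libraries, at 1.69, 1.88 and 1.29 in captured WT RNA, and at 0.97, 1.26 and 1.74 in the DXO-KO-labelled libraries, higher in every captured library. GAPDH went the other way, from 1.15 and 1.20 to 0.16, 0.24 and -0.08 in captured WT RNA and 0.50, 0.28 and 0.52 in the DXO-KO-labelled libraries. ENO1 was at 1.55 and 1.53 in RiboMinus and at 0.83, 1.12 and 1.16 in captured WT RNA. In the DXO-KO-labelled libraries ENO1 was at 0.63, 0.74 and 0.82. PGK1 was at -1.21 and -1.29 in RiboMinus and at -1.33, -1.36 and -1.42 in captured WT RNA. In the DXO-KO-labelled libraries PGK1 was at -1.09, -1.06 and -0.85. PKM was at 0.14 and 0.12 in RiboMinus, at -0.92, -0.89 and -0.99 in captured WT RNA, and at -0.14, -1.18 and -1.46 in the DXO-KO-labelled libraries. PGAM1 was at -2.53 and -2.51 in RiboMinus and between -6.89 and -4.31 in the captured libraries. GPI was at -1.89 and -1.82 in RiboMinus and between -3.01 and -2.37 in the captured libraries. On this scale PGK1 and GAPDH lay wholly higher and ENO1 wholly lower in the DXO-KO-labelled libraries than in captured WT RNA. The other genes overlapped between these groups. PGK1, GAPDH and ENO1 were named here after their values were seen. The share of all genes that separate on this scale was not computed, either between these groups or between captured and RiboMinus libraries.

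**Figure D3:**
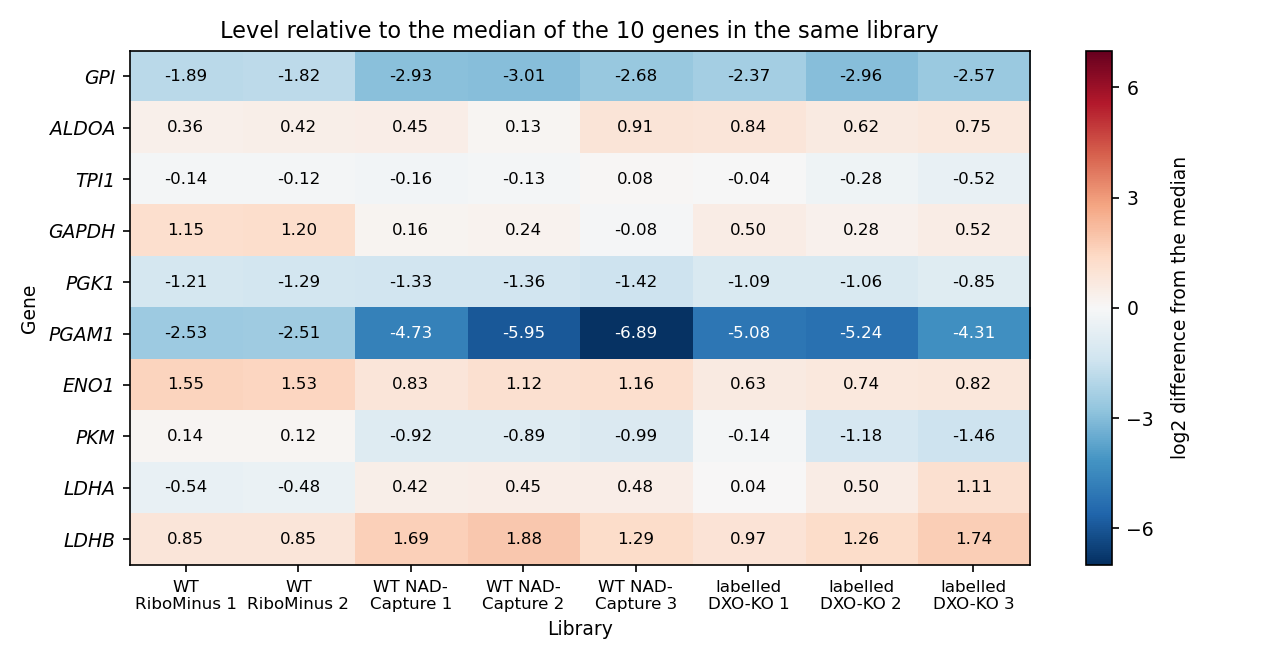
Log2 level of each gene relative to the median of the 10 genes in the same library, for all 8 libraries in their 3 groups. LDHA and LDHB lie higher and GAPDH, ENO1, PKM, GPI and PGAM1 lower in every captured library than in either RiboMinus library. The values are relative to the median of the same 10 genes, so they are not independent of one another. The share of all genes that separate so was not computed.

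Among the 19027 genes with an mRNA transcript, LDHB ranked 37th to 48th by FPKM across all 8 libraries. ENO1 ranked 14th to 16th in RiboMinus, 51st to 56th in captured WT RNA and 52nd to 69th in the DXO-KO-labelled libraries. GAPDH, often used as a reference gene, ranked 27th in RiboMinus, 75th to 108th in captured WT RNA and 61st to 93rd in the DXO-KO-labelled libraries. LDHA ranked 125th to 129th, 69th to 74th and 59th to 83rd in the same order of groups.

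The balance of the 2 lactate dehydrogenase subunits was compared as a log2 ratio of LDHB to LDHA within each library. It was 1.39 and 1.33 in RiboMinus, 1.28, 1.43 and 0.81 in captured WT RNA, and 0.93, 0.76 and 0.63 in the DXO-KO-labelled libraries. LDHB exceeded LDHA in every library. The ratio was 0.40 lower in the DXO-KO-labelled libraries than in WT NAD-Capture (log2 difference -0.40; two-sided exact permutation p = 0.2), with WT NAD-Capture replicate 3 inside the range of the other group. It differed by -0.19 between WT NAD-Capture and RiboMinus (two-sided exact permutation p = 0.7). Neither 3 against 3 nor 3 against 2 libraries can give a p below 0.1.

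The transcripts within a gene gave a further view. Of the 35 transcript rows, 1 was listed at 0 in all libraries and 3 were under 1 FPKM in all, and 8 of the genes had more than 1 row. The row with the highest level over the 8 libraries carried at least 97.9% of the gene's FPKM in every library for ENO1 (NM_001428) and LDHB (NM_002300), and PGK1 (NM_000291) and PGAM1 (NM_002629) have 1 row each. For the other 6 genes the share moved. ALDOA was on NM_184041 at 58.4% and 63.5% in RiboMinus, 83.7%, 90.4% and 92.6% in captured WT RNA, and 90.7%, 96.2% and 84.0% in the DXO-KO-labelled libraries. A second ALDOA row, NM_184043, held 35.6% and 31.5% in RiboMinus, 13.4%, 5.10% and 3.84% in captured WT RNA, and 3.45%, 2.14% and 8.88% in the DXO-KO-labelled libraries. The pair was singled out after its values were seen. ALDOA NM_184041 was higher in WT NAD-Capture than in RiboMinus (log2 difference 0.92, SE 0.199, limma adjusted p 0.0385), and NM_184043 differed by -1.99 (SE 0.723, adjusted p 0.146).

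In the other genes the shares jumped between libraries of 1 group. PKM was on NM_002654, its highest row, at 93.8% and 94.5% in RiboMinus, at 59.7%, 94.6% and 5.13% in captured WT RNA, and at 75.8%, 83.3% and 27.5% in the DXO-KO-labelled libraries. For GAPDH, NM_002046 held 97.6% to 98.8% in RiboMinus, 72.4% to 100.0% in captured WT RNA and 34.9% to 99.9% in the DXO-KO-labelled libraries. TPI1 (NM_000365) was at 98.0% to 98.3% in RiboMinus and as low as 37.4% in a WT NAD-Capture library. LDHA was on NM_005566 at 97.3% and 92.5% in RiboMinus and at 100.0% in captured WT RNA, and replicate 2 labelled DXO-KO had 45.9%. GPI was on NM_000175 at 96.2% to 97.4% in RiboMinus, and in replicates 1 and 3 labelled DXO-KO at 88.1% and 0.00195%. These shares are estimates that divide the same fragments among overlapping transcripts, and the part of low depth in their jumps was not tested. Of the member transcripts tested between WT NAD-Capture and RiboMinus, 26 in all, 2 rose (ALDOA NM_184041 and LDHA NM_005566) and 4 fell, beside 12.6% and 13.1% of 24777 transcripts. The 4 that fell, of GAPDH, GPI, LDHA and TPI1, averaged 3.92 to 10.4 FPKM in RiboMinus and were at or near 0 in WT NAD-Capture, where a single fragment is worth 4.01 to 6.11 FPKM at 1 kb. In replicate 1 labelled DXO-KO, the deepest captured library, these rows were at 22.2, 8.81, 11.9 and 3.92 FPKM. In the comparisons of the DXO-KO-labelled libraries with WT NAD-Capture and with RiboMinus, none of 30 member transcripts passed in limma, with 1 and 3 at an unadjusted p under 0.05. Over all transcripts, 0.024% were called higher and 0.008% lower against WT NAD-Capture, and 4.41% higher and 9.63% lower against RiboMinus.

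**Figure D4:**
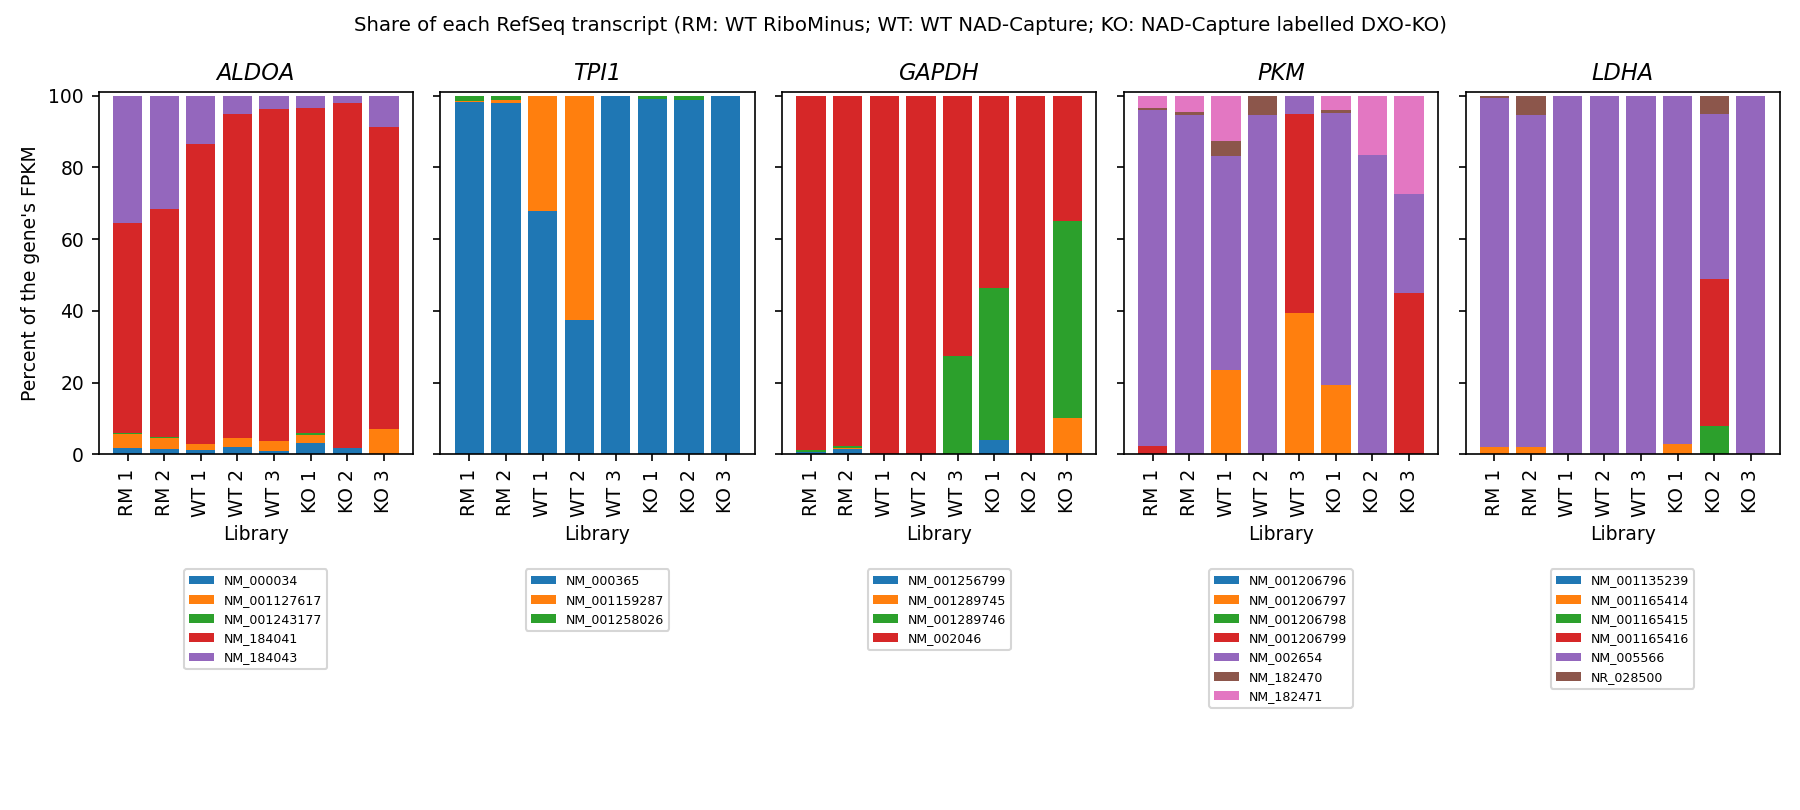
Percent of each gene's summed FPKM on each of its transcript rows, by library, as stacked bars for ALDOA, TPI1, GAPDH, PKM and LDHA (RM is WT RiboMinus, WT is WT NAD-Capture and KO is NAD-Capture labelled DXO-KO). ALDOA moves towards NM_184041 in all 6 captured libraries, while in PKM, GAPDH, TPI1 and LDHA some captured libraries stand apart from the others of their group.

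Genes around the pathway were taken from 4 lists. In WT NAD-Capture against RiboMinus, 4 of 19 tested genes for other isoenzymes of the pathway rose and 3 fell, with a median log2 difference of 0.63. For these lists too, the shares over all genes were 16.7% higher and 7.98% lower, and the median 0.21. The called genes with the largest differences were HK3, a hexokinase (3.61, limma adjusted p 0.0102), ENO3, the muscle enolase (3.04, adjusted p 0.00385) and PKLR, the pyruvate kinase of liver and red cells (2.88, adjusted p 0.0124). Their levels were low: HK3 was listed at 0 in both RiboMinus libraries and at 12.7, 19.1 and 5.65 FPKM in WT NAD-Capture, against 1 fragment being worth several FPKM there. Of the 7 markers of other cells, 2 of the 3 tested also rose. INS was listed at 0 in RiboMinus and at 16.8, 24.9 and 12.8 FPKM in WT NAD-Capture (adjusted p 0.00290), and COL1A1 was at 1.27 and 1.56 FPKM and then at 8.27, 8.57 and 9.28 FPKM (2.01, adjusted p 0.00883). Their part in the levels of the isoenzymes was not tested. The isoenzyme genes that fell, named here after their values were seen, were PFKP, a phosphofructokinase (-1.03, adjusted p 0.0254), ADPGK, a glucokinase that uses ADP (-1.07, adjusted p 0.0263), and LDHC, the lactate dehydrogenase of testis (-2.31, adjusted p 0.0405). Of 11 tested genes for glucose and lactate transport and the PFKFB enzymes, 3 rose and 1 fell (median 0.19). SLC16A3, a lactate exporter, was at 0.257 and 0.188 FPKM in RiboMinus and at 25.6, 19.5 and 22.0 FPKM in WT NAD-Capture (4.25, adjusted p 0.00211). SLC2A4 (2.73, adjusted p 0.0162) and SLC2A6 (2.38, adjusted p 0.00598), both glucose transporters, also rose.

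Of 13 tested genes for the entry of pyruvate into mitochondria and its oxidation, 1 rose and 2 fell (median -0.51). PDK1, a kinase that inhibits pyruvate dehydrogenase, rose (1.35, limma adjusted p 0.0128), and PDHX (-1.60, adjusted p 0.0221) and PDHA1 (-0.82, adjusted p 0.0371), both parts of that complex, fell. Of 8 genes of the pentose phosphate pathway, TKTL1 rose (2.16, adjusted p 0.0174) and the transketolase TKT fell (-1.67, adjusted p 0.0171), with a median of -0.34. TKTL1 was low, at 0.394 and 0.434 FPKM in RiboMinus and at 4.28, 5.09 and 6.78 FPKM in WT NAD-Capture. The captured values are near the worth of a single fragment at 1 kb there, 4.01 to 6.11 FPKM. TKT was at 146 and 145 FPKM in RiboMinus and at 50.1, 58.3 and 30.6 FPKM in WT NAD-Capture, with no overlap.

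Between the DXO-KO-labelled libraries and RiboMinus, where 3.33% of all genes were called and the median of all was 0.20, 2 genes of the 4 lists passed. SLC16A3 was at 13.9, 7.93 and 20.6 FPKM in the DXO-KO-labelled libraries (3.54, limma adjusted p 0.0360) and was the 1 gene called of 13 in transport and PFKFB enzymes (median 0.76). PDK1 was at 6.55 and 6.89 FPKM in RiboMinus and at 34.7, 50.7 and 43.2 FPKM in the DXO-KO-labelled libraries (2.49, adjusted p 0.0207), the 1 gene called of 14 for pyruvate entry (median -0.01). None of 18 other isoenzymes passed (median 0.15; HK1 -0.38, adjusted p 0.372, and PFKL 0.48, adjusted p 0.451), and none of 7 pentose phosphate genes (median -0.68; TKT -1.12, adjusted p 0.0599, and TALDO1 -0.66, adjusted p 0.219). At an unadjusted p under 0.05 were 6 and 3 genes of these lists, beside 21.1% of all genes.

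Between the DXO-KO-labelled libraries and WT NAD-Capture, no gene of the 4 lists passed in limma. At an unadjusted p under 0.05 were 5 other isoenzymes, 1 gene of transport and PFKFB enzymes, 3 of pyruvate entry and 2 of the pentose phosphate pathway, that is 5 of 18, 1 of 12, 3 of 14 and 2 of 8, beside 16.7% of all genes. The median log2 difference was -0.09 over 18 other isoenzymes, -0.27 over 12 genes of transport and PFKFB enzymes, 0.60 over 14 of pyruvate entry and 0.14 over 8 of the pentose phosphate pathway. The most abundant of each list were PFKL (-0.15, adjusted p 0.830) and HK1 (0.60, adjusted p 0.381), BSG (0.57, adjusted p 0.335) and SLC16A1 (-0.09, adjusted p 0.889), PDHB (0.59, adjusted p 0.523) and MPC1 (0.12, adjusted p 0.898), and TALDO1 (-0.40, adjusted p 0.486) and PGD (-0.95, adjusted p 0.250).

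The genes whose profile over the 8 libraries lay nearest to the mean profile of the 10 genes were sought among 4497 others with a mean of at least 10 FPKM in every group. By the root mean square difference of log2(FPKM + 1), each profile centred on its own mean, they were EIF3A (0.10), SUZ12 (0.12), MDH1 (0.13), MTREX (0.13) and PEF1 (0.14). The 10 genes themselves lay 0.23 (GAPDH) to 1.23 (PGAM1) from their mean. The 5 were picked as the nearest of 4497, so that they lay nearer than the 10 follows largely from the choice. EIF3A was at 145 and 139 FPKM in RiboMinus, at 158, 138 and 86.4 FPKM in captured WT RNA, and at 112, 183 and 173 FPKM in the DXO-KO-labelled libraries. The 8 points share the libraries and their depths, so this is a description.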

How the data were processed

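RNA of 8 HEK293T libraries was measured by sequencing. The authors deposited FPKM per RefSeq transcript and library; per the submitters' processing notes the tools were TopHat2 2.1.1, Bowtie2 2.2.8.0 and Cuffdiff, and the build hg19. The annotation version, the strand setting and the handling of reads that match several places are not given in the sources used here. Of 53216 transcripts, 52756 (99.1%) were paired with a symbol, 52028 through a RefSeq table of GRCh38.p14 and 728 through GENCODE, and FPKM were summed per symbol. Groups came from the sample titles.

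Differences were fitted on log2(FPKM + 1) in R 4.3.3 by limma 3.58.1 (two-sided, a mean-variance trend in eBayes, no robust option) from the libraries compared, with Benjamini-Hochberg adjustment over all genes with a mean FPKM of at least 1. This scale understates the change of low genes. The fit was also run on simulated data with independent normal noise on the log2 scale. Those lack the whole-fragment steps of the captured libraries, so they do not show how the fit does at such depth. Single values used exact permutation tests. Python 3.11.15 was used with numpy 2.4.6, pandas 2.3.3, scipy 1.17.1 and matplotlib 3.10.9. Depth was read from 7163 transcripts of 1500 to 6000 nt: 71.3% to 73.8% of low values were whole multiples of 1 fragment's value to within 4%, so no count model was fitted. Depth was equivalent to 10654933 and 8758486 fragments in RiboMinus and 80623 to 805754 in NAD-Capture.

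The 10 genes and the other lists were chosen with earlier results of these data known. By rule, all 10 genes were named, of other lists up to 3 called genes with the largest differences or else the 2 most abundant, and the 5 genes of nearest profile. The alternatives were other pseudocounts and filters, 3 scalings, all 8 libraries in a common fit, a replicate block, each transcript on its own, and leaving out each replicate. The 2 comparisons with RiboMinus share those libraries.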

Additional observations from a re-analysis of the deposited data

How the results depend on the processing

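Between the DXO-KO-labelled libraries and WT NAD-Capture, no gene of the 10 was called under any alternative run, and 144 values for single genes kept their side of 0 and of the threshold while 16 changed sign. After quantile normalization the median of the 10 was -0.075, and GPI (-0.012), ALDOA (-0.043), GAPDH (-0.021), PKM (-0.11) and LDHA (-0.25) changed sign. Centring turned TPI1 to 0.029, and testing each transcript on its own turned GPI to -1.98, TPI1 to 0.55, GAPDH to -0.22 and LDHA to -0.18. Leaving out a replicate gave medians of 0.12 to 0.54, and ranges across 0 for TPI1 (-0.28 to 0.074), ENO1 (-0.39 to 0.14), PKM (-0.070 to 0.28), LDHA (-0.17 to 0.76) and LDHB (-0.51 to 0.28). DXO was 1.38 to 1.90 there, and passed with all 8 libraries in a common fit (1.69, adjusted p 0.0492). The table's 6 calls became 441 in that fit, 27 after quantile normalization, 11 with a pseudocount of 10 or centring, and 4 to 16 without a replicate.

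Between WT NAD-Capture and RiboMinus, the 1 higher and 2 lower calls became 0 higher and 6 lower after quantile normalization (6 of 10), 1 and 5 with mRNA genes scaled to a common sum (6 of 10), 0 and 4 after centring, and 0 and 1 with all 8 libraries, with 0 to 4 calls without a replicate. LDHA lost its call after quantile normalization, after centring and with all 8 libraries. The median was -0.52 after centring, -0.87 after quantile normalization, -0.49 with mRNA genes scaled, and -0.15 to 0.097 without a replicate. Changes of sign were ALDOA (-0.10), TPI1 (-0.15) and PGK1 (-0.33) after centring; ALDOA (-0.996), TPI1 (-0.75), PGK1 (-0.11) and LDHB (-0.75) after quantile normalization; ALDOA (-0.068), TPI1 (-0.12) and PGK1 (-0.30) with mRNA genes scaled; TPI1 (-0.31) by transcript; and PGK1 (-0.019 to 0.33) without a replicate. The table's 4210 calls (2851 higher, 1359 lower) became 2229 higher and 3103 lower after centring, 1465 and 949 after quantile normalization, 2712 and 2701 with mRNA genes scaled, 2383 in all at a mean of at least 10 FPKM and 2647 with all 8 libraries. Without RiboMinus replicate 1 or 2 they were 19 and 30; the lone library was then assumed to vary like the others. The LDHB to LDHA ratio difference was -0.32 to -0.0054 without a replicate, and -0.58 to -0.27 between the captured groups.

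Between the DXO-KO-labelled libraries and RiboMinus, 1 gene was called after centring, 5 after quantile normalization and 1 with mRNA genes scaled, all lower, and 0 to 4 without a replicate. The median was -1.28 after quantile normalization, -0.56 with mRNA genes scaled and -0.19 to 0.15 without a replicate. Sign changes were TPI1 after centring (-0.013) and with mRNA genes scaled (-0.26), and ALDOA (-1.04), TPI1 (-1.13) and LDHB (-1.42) after quantile normalization. The table's 503 calls became 259 with a pseudocount of 10, 85 without a filter, 284 with mRNA genes scaled, 812 after quantile normalization, 880 with all 8 libraries, 1215, 1 and 1519 without replicates 1, 2 and 3 labelled DXO-KO, and 3 and 2 without RiboMinus replicates 1 and 2. By transcript, the calls in the 3 comparisons were 8, 6363 and 3148. The cause of these changes was not tested.

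The labels say nothing that pairs libraries of the same number, and same-numbered libraries of the captured groups did not deviate together (r = -0.016, -0.005 and -0.034 across genes). With the replicate number as a block, limma called 4 genes between the captured groups and 0 of the 10, with a median of 0.28. Against RiboMinus the block left 0 calls in both comparisons (5761 and 3596 genes at an unadjusted p under 0.05). The median of the 10 was 0.097 for WT NAD-Capture. RiboMinus has no replicate 3, so there the block took up replicate 3 of the captured group. The log2 differences equalled those with that replicate left out, and less was left to estimate the spread. The loss of calls therefore cannot show whether libraries are paired.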
